A study of Mus musculus with 34 samples.

Results

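Definitive endoderm (DE) of PWK/PhJ, a wild-derived inbred mouse strain, was compared with DE of C57BL/6J, the strain of the mouse reference genome, by RNA sequencing. All 4 PWK/PhJ DE libraries and all 5 C57BL/6J DE libraries were used, 9 of the 34 libraries of the study. The other libraries hold DE of 5 further strains and EpiSC, the epiblast stem cells from which DE was made and a primed kind of pluripotent cell, of the same strains. The comparison asks which genes depend on genetic background in an early embryonic cell type made in culture. The PWK/PhJ lines were AC699, AC695, AC698 and AC705, and the C57BL/6J lines were 2, 44, 5-1, 4 and 1. Values per line below keep these orders. The title of AC705 holds ALT in place of its line number, a word whose meaning is not given in the sources used here. No transgene, deletion or drug separates the strains, and both went through 1 protocol. EpiSC grew on irradiated mouse embryonic fibroblasts with activin (20 ng/mL), FGF (12.5 ng/mL) and a tankyrase inhibitor. They were plated on laminin for 5 h and held for 16 h in CHIR (3 uM, an inhibitor of GSK3) with activin (40 ng/mL). They then had 24 h of activin (100 ng/mL) and LDN-193189 (100 nM, an inhibitor of BMP receptors). At 40 h, cells carrying CXCR4 on their surface were captured with magnetic beads. Each library came from a line of its own, and the p-values below measure the spread between lines.

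Definitive endoderm is the germ layer that forms the gut, liver and pancreas. Nodal, a ligand of the TGF-beta family, induces it in the embryo, and activin stands in for Nodal in culture because both use the same activin receptors. The receptors phosphorylate SMAD2 and SMAD3, which enter the nucleus with SMAD4 and the forkhead factor FOXH1. Among the genes switched on are Lefty1 and Lefty2, secreted antagonists that hold Nodal signalling in check.

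Libraries held 24.4 to 58.4 M (mega) counts in PWK/PhJ and 24 to 67.7 M counts in C57BL/6J. The typical gene differed between 2 PWK/PhJ lines by a median of 0.238 on the log2 scale (6 pairs). For 2 C57BL/6J lines the median was 0.261 (10 pairs), and for lines of the different strains 0.314 (20 pairs; 7853 genes). Line 2 differed from the other C57BL/6J lines by 0.507 to 0.619, and the remaining C57BL/6J pairs differed by 0.17 to 0.277. Pairs of different strains ran from 0.251 to 0.598. Fibroblast genes differed between libraries. The summed level of 20 fibroblast markers was 726, 417.6, 817.8 and 816 CPM (counts scaled to a common library size) in the PWK/PhJ lines, against 511.2, 320.3, 251.7, 261.3 and 276.9 CPM in the C57BL/6J lines. AC695 lies within the C57BL/6J range and the other PWK/PhJ lines lie above it. Of the C57BL/6J lines, line 2 alone lay above AC695, and the others had at most 320.3 CPM. Between 0 and 2 of the 20 markers had no count in a PWK/PhJ library and between 0 and 4 in a C57BL/6J library. With AC695 as the only PWK/PhJ line, 624 genes passed the test. That fit rests on 1 PWK/PhJ line, and of the 127 called genes named or listed here 94 no longer passed and 4 turned in direction. Line AC699 also stood apart, with Y-linked genes at 6.187 CPM and Xist at 8.639 CPM, against 239.8 to 323.5 CPM and at most 0.577 CPM in the other PWK/PhJ lines. Lines 2 and 4 of C57BL/6J differed from their strain's other lines at genes chosen, after the data were seen, for being near 0 in lines 44, 5-1 and 1. For 4 such genes that every DE library of the other strains expressed, line 2 reached 60.3% and line 4 18.1% of the level of the other strains. For 64 such genes that all PWK/PhJ lines expressed, the levels in lines 2 and 4 were 1.75% and 1.63% of those in PWK/PhJ, beside 1.05% to 1.22% in lines 44, 5-1 and 1. For genes of the same kind in other strains, line 4 stood at 17.2% of DBA/2J (19 genes) and 11.7% of NZO/HiLtJ (16 genes). Line 2 stood at 6.29% of NOD/ShiLtJ (40 genes), beside at most 1.71% in lines 44, 5-1 and 1, which the choice of genes keeps low. In EpiSC, with genes chosen anew in the same way, line 4 stood at 3.01% of DBA/2J and 2.32% of NZO/HiLtJ. Line 2 stood there at 2.82% of NOD/ShiLtJ. At 5 genes that every EpiSC library of the other strains expressed, line 2 reached 37.5% and line 4 2.93%. Whether these lines are mixed was not tested. Without lines 2 and 4, 3027 genes were called, 2564 of them shared with the full comparison.

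PWK/PhJ DE differed from C57BL/6J DE at many genes, and Sox17, a master regulator of endoderm, gave no call. Of 19290 genes tested, 17.1% passed an adjusted p under 0.05, 9.66% higher and 7.47% lower in PWK/PhJ. The test was the quasi-likelihood test of edgeR, with p-values adjusted by Benjamini-Hochberg. Each count of list members below is to be read beside these shares, and no list was tested as a set. Of the called genes, 1570 higher and 1097 lower had groups of lines that did not overlap, 13.8% of the genes tested. In bulk RNA, fewer cells of a type and less RNA per cell cannot be told apart. All reads were aligned to the C57BL/6J genome, so a difference in expression and one in alignment cannot be told apart from these counts either. Sox17 stood at 1231, 1131, 1303 and 1131 CPM in the PWK/PhJ lines, against 1378, 1416, 1243, 1142 and 903 CPM in the C57BL/6J lines. The 2 groups overlap, and the log2 fold (here and below PWK/PhJ over C57BL/6J) was -0.02 ± 0.22 (SE). Of 12 transcription factors of definitive endoderm, 0 passed the test by edgeR, 4 had an unadjusted p under 0.05, as 29.3% of all genes tested did, and DESeq2 called 1, Eomes. Eomes, a T-box factor that specifies endoderm, reached 245 to 265 CPM in PWK/PhJ and 127 to 223 CPM in C57BL/6J (0.41 ± 0.16; adjusted p = 0.0947). Gata4 (1.03 ± 0.46) and Lhx1 (-0.58 ± 0.23), other regulators of endoderm, had adjusted p-values of 0.15 and 0.1. Of 8 surface and secreted endoderm products, Trh fell and the claudin gene Cldn6 rose, by 0.62 ± 0.17. The Cldn6 call ended without AC695 (0.53), without AC705 (0.61), without line 4 (0.60), without line 1 (0.54) and with the fibroblast level as a covariate (0.39).

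Lefty1, Lefty2, Smad7 and Inhbb were lower in PWK/PhJ DE, while Nodal, the receptors and the signal-carrying SMADs gave no call by edgeR. Of 22 genes of the Nodal and activin pathway 20 were tested, 5 fell and 0 rose, and their median log2 fold was -0.02 beside -0.01 over all genes. Nodal itself, the ligand, measured 249, 250.2, 209 and 205 CPM in the PWK/PhJ lines, against 247, 259.8, 209, 209.6 and 233 CPM in the C57BL/6J lines. These ranges coincide (-0.02 ± 0.15). Inhbb, which encodes the beta-B subunit of activin, averaged 10.3 ± 2.84 CPM in PWK/PhJ and 23.6 ± 4.49 CPM in C57BL/6J (SD, n = 4 and 5) and fell (log2 fold -1.19 ± 0.25; adjusted p = 0.00341). Inhba, the gene of the other activin subunit, had a log2 fold of 3.07 ± 1.16 (adjusted p = 0.0877) and ranged from 1.49 to 21.1 CPM among the PWK/PhJ lines.

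Receptors and transducers gave 0 calls among 9 genes tested by edgeR. At an unadjusted p under 0.05, reached by 29.3% of all genes, there were 1 of 5 receptors and co-receptors and 2 of 4 transducers, and DESeq2 called 2 genes, Smad2 and Foxh1. The type I receptor gene Acvr1b had a log2 fold of 0.78 ± 0.32, the type II receptor gene Acvr2a of -0.05 ± 0.24, and Tdgf1, the Nodal co-receptor Cripto, of 0.45 ± 0.24. Smad2 averaged 112 ± 13.2 CPM in PWK/PhJ and 82.4 ± 10.3 CPM in C57BL/6J (adjusted p = 0.0578). Foxh1 averaged 157 ± 27.4 CPM in PWK/PhJ and 220.1 ± 36.4 CPM in C57BL/6J (adjusted p = 0.072).

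Of 5 antagonists, 3 fell, beside 7.47% of all genes tested. Lefty1 (chromosome 1, 180935022 to 180938400, GRCm38) measured 1676, 3891, 3071 and 2721 CPM in the PWK/PhJ lines, against 10322, 8332, 5656, 6118 and 7048 CPM in the C57BL/6J lines. Every PWK/PhJ line lay below every C57BL/6J line, and the log2 fold was -1.40 ± 0.29 (adjusted p = 0.00371). Its neighbour Lefty2 (chromosome 1, 180893108 to 180899103) measured 209, 520.3, 459 and 497 CPM in PWK/PhJ, against 1809, 2064, 308, 1492 and 1529.7 CPM in C57BL/6J. Line 5-1 alone fell inside the PWK/PhJ range (-1.77 ± 0.42; adjusted p = 0.00867). The parent EpiSC went the other way at Lefty2, with 70.1 ± 12.4 CPM in PWK/PhJ and 20.8 ± 10.1 CPM in C57BL/6J (SD, n = 3 and 5). Lefty1 stood there at 97.4 ± 36.6 and 87.3 ± 16.9 CPM. Smad7, an intracellular inhibitor that blocks the receptors, stood at 6.97, 3.07, 4.19 and 8.1 CPM in PWK/PhJ, against 13.8, 15.4, 12.6, 15.2 and 20.6 CPM in C57BL/6J (-1.47 ± 0.33; adjusted p = 0.00659). Fst, the activin-binding protein follistatin, did not pass, at 37.9 ± 3.01 CPM in PWK/PhJ and 19.4 ± 10.5 CPM in C57BL/6J (adjusted p = 0.0862).

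Pmepa1, a target and feedback gene of the pathway, had a log2 fold of 0.34 ± 0.46 (adjusted p = 0.697). Lefty1, Lefty2, Smad7 and Inhbb passed in each of 9 fits that left out 1 line. With the fibroblast level as a covariate, Lefty2 (-1.66) and Smad7 (-1.20) lost their calls, while Lefty1 (-1.56) and Inhbb (-1.53) kept theirs. With AC695 as the only PWK/PhJ line, Smad7 passed (-2.33), and Lefty1 (-0.94), Lefty2 (-1.46) and Inhbb (-1.57) did not. Against the mean of 3 other strains (WSB/EiJ, NOD/ShiLtJ and NZO/HiLtJ, 2 DE lines each, 13.2% of genes called for PWK/PhJ and 3.6% for C57BL/6J), the values for Lefty1 were -0.34 in PWK/PhJ (adjusted p = 0.512) and 1.06 in C57BL/6J (adjusted p = 0.0312). The strains of that mean differed, with Lefty1 at 6076 CPM in WSB/EiJ, 3128 CPM in NZO/HiLtJ and 2447 CPM in NOD/ShiLtJ, whose libraries had fibroblast sums of 1880.0 and 2274 CPM. The 1 DBA/2J line had 6984 CPM and the 1 CAST/EiJ line 2636 CPM. These contrasts share libraries with the main one, so they place a gene among the strains and are no second test.

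**Figure D1:**
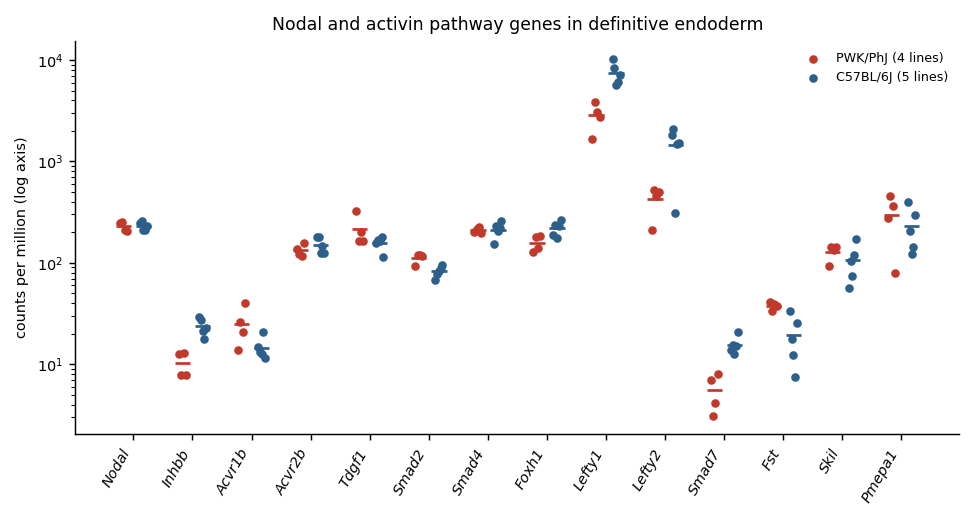
Levels of 14 Nodal and activin pathway genes in CPM (log axis), with 1 point per line and a bar at the mean, PWK/PhJ (red, 4 lines) left of C57BL/6J (blue, 5 lines). Lefty1 and Smad7 do not overlap between strains, while the points of Nodal and Smad4 lie over each other.

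The largest differences at well-expressed genes included hormones, receptors and cell-surface proteins. Genes were ranked by log2 fold among those that were called, were expressed at 4 or more in mean log2 CPM and had groups that did not overlap, and of the 10 largest in each direction 9 higher and all 10 lower are described. Among the 10 lower in PWK/PhJ, the first were the neuropeptide precursor Trh and chromogranin A, Chga, a protein of secretory granules. Trh (chromosome 6, 92242061 to 92244650) measured 29.9, 74.7, 71.2 and 22.4 CPM in the PWK/PhJ lines, against 3149.5, 6018, 1094, 784 and 1100.1 CPM in the C57BL/6J lines. The C57BL/6J lines themselves spread widely, and the log2 fold was -5.62 ± 0.90 (adjusted p = 0.000533). Chga (chromosome 12, 102554969 to 102565028) measured 5.21, 20.3, 8.41 and 9.13 CPM in PWK/PhJ, against 304, 398, 153, 237 and 257 CPM in C57BL/6J (-4.65 ± 0.41; adjusted p = 1.8e-06). The highest PWK/PhJ line, AC695, lay far below the lowest C57BL/6J line, 5-1. With AC695 as the only PWK/PhJ line Chga passed (-3.73) and Trh did not (-5.02).

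The promoters of these hormone-related genes are shown because both genes fell together, and TGACG, a short form of the cAMP response element, was looked for on either strand. The windows run from 250 bases before to 50 after the gene start (RefSeq, GRCm38.p6, the C57BL/6J sequence; that of PWK/PhJ was not used here), and capitals mark TGACG or its reverse complement CGTCA. Each holds 1 match, and 20.8% of 32817 promoter windows hold at least 1.
Trh (chr6:92244601-92244900, minus strand): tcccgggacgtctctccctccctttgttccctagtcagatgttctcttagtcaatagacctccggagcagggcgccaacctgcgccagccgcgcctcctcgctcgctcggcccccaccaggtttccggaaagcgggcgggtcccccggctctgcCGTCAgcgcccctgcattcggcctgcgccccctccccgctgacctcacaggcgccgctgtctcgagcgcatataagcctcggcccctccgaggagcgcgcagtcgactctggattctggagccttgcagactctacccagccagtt
Chga (chr12:102554691-102554990, plus strand): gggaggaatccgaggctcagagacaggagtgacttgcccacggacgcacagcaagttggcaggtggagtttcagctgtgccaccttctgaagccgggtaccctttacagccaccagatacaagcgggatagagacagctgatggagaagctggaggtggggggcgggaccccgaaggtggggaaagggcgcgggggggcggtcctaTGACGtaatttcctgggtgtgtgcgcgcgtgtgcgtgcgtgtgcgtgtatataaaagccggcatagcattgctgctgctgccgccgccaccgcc
A match is a description of the letters and not a binding site.

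The other genes lower in PWK/PhJ were of mixed function. Ntrk2, the receptor of the neurotrophin BDNF, averaged 5.2 ± 2.51 CPM in PWK/PhJ and 59.9 ± 11.3 CPM in C57BL/6J (-3.52 ± 0.35). Dhcr7 (chromosome 7, 143823145 to 143848410), the last enzyme of one branch of cholesterol synthesis, measured 13.4, 14, 14.7 and 26.3 CPM in PWK/PhJ, against 76.9, 169.9, 214, 232 and 225 CPM in C57BL/6J (-3.42 ± 0.35; adjusted p = 7.27e-06). A4galt, a galactosyltransferase that makes the glycolipid Gb3, was among the most even within strains, at 23.2 ± 2.48 CPM in PWK/PhJ and 239.5 ± 20.7 CPM in C57BL/6J (-3.36 ± 0.18; adjusted p = 8.82e-09). Ly6e, a GPI-anchored surface protein, had a log2 fold of -3.40 ± 0.32, the tetraspanin gene Tspan15 of -3.33 ± 0.26, the nucleotidase gene Nt5c of -3.17 ± 0.28 and the dynein chain gene Dync1li1 of -3.10 ± 0.24. Chrnb4, a nicotinic receptor subunit, had -3.06 ± 0.56, and its call ended with the fibroblast level as a covariate (-1.99).

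Among the 9 genes higher in PWK/PhJ, Cd151 (chromosome 7, 141467392 to 141471473), a tetraspanin that binds laminin receptors, measured 238, 277, 223 and 211 CPM in the PWK/PhJ lines, against 12, 19.9, 21.2, 21.7 and 13.2 CPM in the C57BL/6J lines. The groups lay far apart with little spread within either, and the log2 fold was 3.75 ± 0.26 (adjusted p = 1.66e-07). Ung (chromosome 5, 114130386 to 114139323), the uracil DNA glycosylase of base excision repair, averaged 172 ± 26.2 CPM in PWK/PhJ and 17.2 ± 9.35 CPM in C57BL/6J (3.32 ± 0.31; adjusted p = 2.96e-06). Wnt11 (chromosome 7, 98835112 to 98855195), a ligand of non-canonical Wnt signalling, measured 114, 44.1, 50.6 and 33.6 CPM in PWK/PhJ, against 8.18, 3.8, 11, 7.92 and 4.59 CPM in C57BL/6J (3.09 ± 0.37; adjusted p = 3.82e-05). Line AC699 was the highest of the PWK/PhJ lines at Wnt11 and AC705 the lowest.

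Arhgap45, a GTPase-activating protein, was nearly constant among PWK/PhJ lines at 80.2 to 90.0 CPM, against 2.29 to 12.1 CPM in C57BL/6J (3.72 ± 0.37). Nbl1, a secreted BMP antagonist, had a log2 fold of 3.12 ± 0.47 and the actin-bundling protein gene Lcp1 of 2.86 ± 0.45. Bgn, the matrix proteoglycan biglycan, had 3.03 ± 0.75 and was lowest among PWK/PhJ lines in AC695 (24.5 CPM). With the fibroblast level as a covariate its value was 0.39 and the call ended. Vcp-rs, annotated as a processed pseudogene of Vcp (chromosome X, 104345829 to 104348234), led the list at 4.63 ± 0.17. Vcp, the ATPase p97, fell at the same time (log2 fold -0.83 ± 0.14), and the sum of the pair was 812.3 ± 40.84 CPM in PWK/PhJ and 932.1 ± 92.53 CPM in C57BL/6J (SD; exact permutation test, two-sided, p = 0.0635; adjusted p = 0.0847 over 4 pairs of copies). Tpm3-rs7, a copy of the tropomyosin gene Tpm3, rose by 2.92 ± 0.96 while Tpm3 fell (-1.09 ± 0.18), and their sum was 674.9 ± 57.22 CPM in PWK/PhJ and 655.5 ± 60.23 CPM in C57BL/6J (p = 0.579 by the same exact test). The rise in Tpm3-rs7 lost its call without each of AC699 (2.88), AC695 (2.91), AC698 (2.92), AC705 (2.92), 44 (2.56), 5-1 (2.57), 4 (3.01) and 1 (2.58), and in 14 of 18 alternative settings in all, with the fibroblast level as a covariate among them (2.06; adjusted p = 0.205). The fold ran from 2.06 to 6.89 over these settings, the highest without lines 2 and 4. How reads that match both copies were counted is not given in the sources used here, so single values of such pairs are uncertain.

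**Figure D2:**
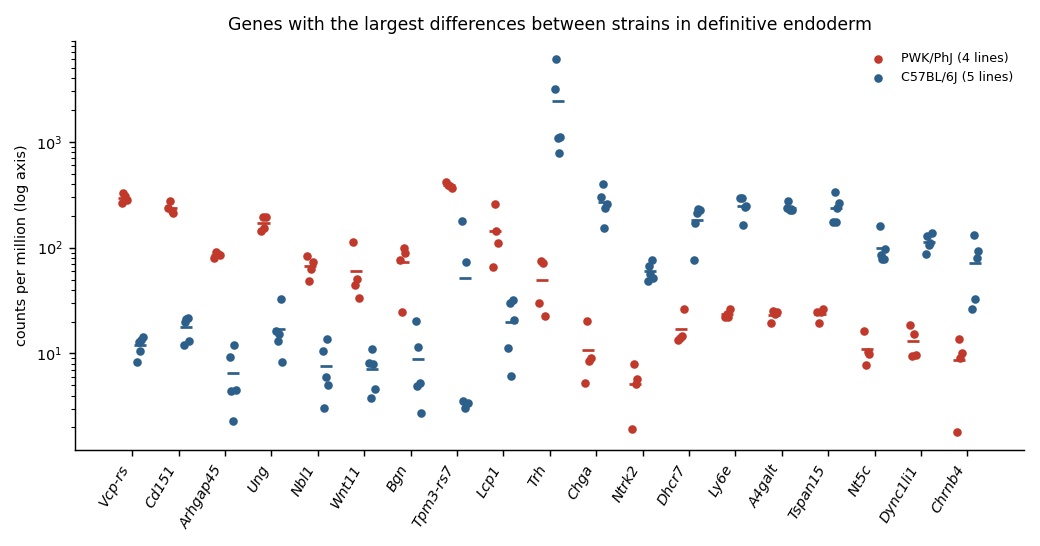
Levels in CPM (log axis) of 9 called genes higher and 10 lower in PWK/PhJ with the largest log2 folds, with 1 point per line and a bar at the mean, PWK/PhJ (red, 4 lines) left of C57BL/6J (blue, 5 lines). The rule that chose the genes required groups that do not overlap, so the gap between colours is part of the choice. C57BL/6J lines 2 and 4 are the 2 high blue points of Tpm3-rs7, at 177 and 72.8 CPM.

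The parent EpiSC showed whether a strain difference was already there before differentiation. PWK/PhJ EpiSC (3 lines, AC695, AC698 and AC705) were set against C57BL/6J EpiSC (5 lines), a contrast that called 29.8% of 17868 genes. The difference between the cell types was tested as an interaction, which called 6.67% of 20907 genes. These 3 and 5 lines also gave DE libraries, and that test treated all libraries as independent. A fit with the cell line as a replicate block called fewer genes, and its count is given at the end. The EpiSC and DE libraries come from different kits, so an effect of cell type and one of kit cannot be told apart. Of the 19 genes above, 5 of 9 higher and 4 of 10 lower were also called in EpiSC in the same direction, and 3 higher and 9 lower differed between cell types, beside a positive interaction at 3.97% and a negative one at 2.7% of all genes tested. The genes were chosen for large folds in DE, which enter the interaction, so nothing is read from these counts against those shares. Cd151 was 81.4 to 95.6 CPM in PWK/PhJ EpiSC and 61.6 to 115 CPM in C57BL/6J EpiSC, a log2 fold of 0.09 ± 0.16, and its interaction was 3.70 ± 0.31 (adjusted p = 2.18e-08). Ung (-0.15 ± 0.12), Dhcr7 (-0.13 ± 0.14), Chga (-0.29 ± 0.43) and Ntrk2 (0.55 ± 0.30) likewise had no call in EpiSC, with interactions of 3.50 ± 0.36, -3.25 ± 0.36, -4.34 ± 0.58 and -4.05 ± 0.45. At Trh the strains were apart in both cell types, at 36.2 ± 3.65 CPM in PWK/PhJ EpiSC and 501 ± 411 CPM in C57BL/6J EpiSC (SD, n = 3 and 5; -3.79 ± 0.78), and the interaction gave no call (-1.81 ± 1.06; adjusted p = 0.373). Vcp-rs (4.94 ± 0.11) and Arhgap45 (3.63 ± 0.21) were called in EpiSC with folds near those in DE. Lcp1 passed the interaction test once the cell line entered as a replicate block.

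Other strains placed these genes between or beyond the pair. Against the same mean of 3 strains, PWK/PhJ passed in the same direction at 5 of the 9 higher and 10 of the 10 lower genes. Over all genes, 7.88% were called higher and 5.29% lower in PWK/PhJ. C57BL/6J passed in the opposite direction at 6 and 2, beside 1.85% of all genes lower and 1.76% higher in C57BL/6J. The genes were chosen for large folds in a contrast that shares these libraries, so nothing is read from the counts against those shares. Cd151 averaged 237 ± 28.9 CPM in PWK/PhJ and 286 CPM in the 1 CAST/EiJ line, and 179.7 CPM in WSB/EiJ, 11.8 CPM in NOD/ShiLtJ and 13.2 CPM in NZO/HiLtJ. Vcp-rs was high in PWK/PhJ, NOD/ShiLtJ (346 CPM) and CAST/EiJ (265 CPM) and low in NZO/HiLtJ (10.2 CPM) and WSB/EiJ (10.1 CPM).

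**Figure D3:**
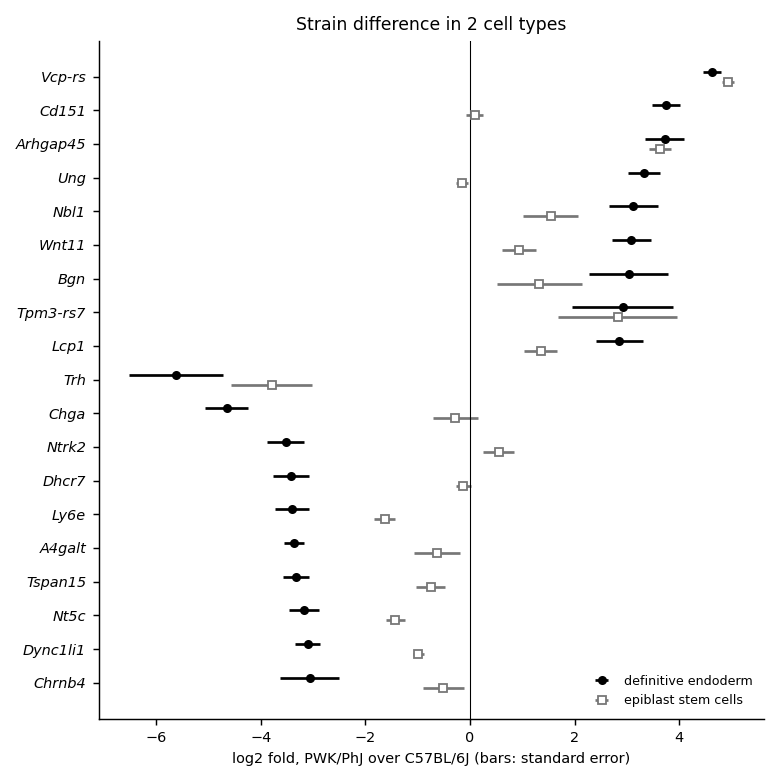
Log2 fold of PWK/PhJ over C57BL/6J for the 19 ranked genes in DE (filled circles) and in EpiSC (open squares), with standard errors. Vcp-rs and Arhgap45 have both symbols close together, while for Cd151, Ung, Chga and Dhcr7 the EpiSC symbol lies near 0.

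Among the most abundant called genes, the actin gene Actb and the actin-binding genes Tpm1 and Cotl1 were higher in PWK/PhJ DE, and the glycolytic genes Ldha, Gapdh and Eno1 were lower. These genes are among those with the highest mean CPM in each direction, taken from called genes with at least a 2-fold difference and no overlap. Actb (chromosome 5, 142903115 to 142906754), the cytoplasmic beta-actin, measured 9231, 10986, 8898 and 9225 CPM in the PWK/PhJ lines, against 2589.9, 1767, 1739, 1902 and 2433 CPM in the C57BL/6J lines. The log2 fold was 2.20 ± 0.17 (adjusted p = 5.9e-07), and AC695, the PWK/PhJ line lowest in fibroblast genes, was the highest. Actg1, the gamma-actin gene, gave -0.20 ± 0.15 (adjusted p = 0.432). The sum of both actins was 10570 ± 1024 CPM in PWK/PhJ and 3214 ± 471.1 CPM in C57BL/6J (exact permutation test, two-sided, adjusted p = 0.0318). Actb was chosen for groups that do not overlap and Actg1 varied little. The separation of the sum was thus set by the choice, and its p-value is no separate support. In EpiSC, Actb was 3212 ± 104 CPM in PWK/PhJ and 2787 ± 483 CPM in C57BL/6J, with an interaction of 2.02 ± 0.22 (adjusted p = 1.08e-06). The CAST/EiJ line had 8136 CPM of Actb, near PWK/PhJ, and WSB/EiJ averaged 2023 CPM.

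Tpm1 (chromosome 9, 67022590 to 67049406), a tropomyosin that lies along actin filaments, measured 2667, 1429, 1829 and 1673 CPM in PWK/PhJ, against 459, 306, 501, 401 and 322 CPM in C57BL/6J (2.25 ± 0.31; adjusted p = 0.000166). The actin-binding gene Cotl1 averaged 407 ± 90.8 CPM in PWK/PhJ and 96.2 ± 25.8 CPM in C57BL/6J (2.08 ± 0.23). Both differed between the cell types, with interactions of 1.84 ± 0.38 and 2.60 ± 0.38. Outside the cytoskeleton, the adhesion protein gene Flrt3 (1.11 ± 0.24), the endoplasmic reticulum chaperone gene Hyou1 (1.33 ± 0.21), the sterol regulator gene Insig1 (1.09 ± 0.22), the membrane protein gene Myadm (1.57 ± 0.31) and the lysosomal protease gene Ctsb (1.01 ± 0.20) were also higher. The Ctsb call ended with the fibroblast level as a covariate (0.45).

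Of 16 glycolysis genes 3 fell and 1 rose, beside 7.47% lower and 9.66% higher among all genes tested, with a median log2 fold of -0.37. The gene that rose was Pfkp, a phosphofructokinase, at 22.4 ± 6.43 CPM in PWK/PhJ and 9.75 ± 5.53 CPM in C57BL/6J (1.21 ± 0.39; adjusted p = 0.0434), groups that overlap. Its call was lost in 11 of 18 alternative settings, among them the fits without AC699 (1.21), AC695 (1.23), AC705 (1.02) and lines 2 (1.21), 5-1 (1.12), 4 (1.24) or 1 (0.99). Ldha, lactate dehydrogenase A, measured 3046, 3836, 2783 and 3895 CPM in PWK/PhJ, against 10139.9, 7647, 6783, 6896 and 6008 CPM in C57BL/6J (-1.14 ± 0.21; adjusted p = 0.00171). Gapdh averaged 1514 ± 183 CPM in PWK/PhJ and 3591 ± 737 CPM in C57BL/6J (-1.25 ± 0.16; adjusted p = 8.4e-05). Eno1, the enolase, averaged 2176 ± 211 CPM in PWK/PhJ and 5640.2 ± 1174 CPM in C57BL/6J (-1.37 ± 0.16; adjusted p = 3.5e-05). Its copy Eno1b ran from 692 to 999 CPM in PWK/PhJ and from 12.3 to 653 CPM in C57BL/6J, highest there in lines 2 and 4. The sum of Eno1 and Eno1b was 3047 ± 319.1 CPM in PWK/PhJ and 5828 ± 1353 CPM in C57BL/6J (exact test, adjusted p = 0.0318). Eno1 was itself chosen for groups that do not overlap, so that p-value is no separate support. Among genes of other steps that did not pass, Pkm was at -0.38 ± 0.18, Aldoa at -0.31 ± 0.27, Pgk1 at -0.70 ± 0.32 and the glucose transporter gene Slc2a1 at 0.05 ± 0.26. In EpiSC the strains differed by -1.25 ± 0.14 at Ldha, -1.19 ± 0.10 at Gapdh and -1.02 ± 0.09 at Eno1, and none of these 3 had a called interaction. With AC695 as the only PWK/PhJ line, Actb and Eno1 (-1.40) passed, and Tpm1 (1.85), Ldha (-0.96) and Gapdh (-1.21) did not.

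Promoters of Ldha and Gapdh are shown because these genes fell together and belong to the glycolytic genes that hypoxia is known to raise. Capitals mark ACGTG, the core of the hypoxia response element, or its reverse complement CACGT (RefSeq, GRCm38.p6). Ldha has 5 matches, since CACGTG counts on both strands, and Gapdh has 1, while a second window of Ldha and all 3 windows of Eno1 have 0. The letters occur in 19.6% of 32817 promoter windows.
Ldha (chr7:46845554-46845853, plus strand): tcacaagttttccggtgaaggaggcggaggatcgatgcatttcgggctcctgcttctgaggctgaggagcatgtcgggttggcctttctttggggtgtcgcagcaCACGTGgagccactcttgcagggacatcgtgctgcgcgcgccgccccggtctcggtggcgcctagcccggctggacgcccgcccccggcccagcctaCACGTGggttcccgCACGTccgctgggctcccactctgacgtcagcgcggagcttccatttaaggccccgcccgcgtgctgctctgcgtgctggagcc
Gapdh (chr6:125165724-125166023, minus strand): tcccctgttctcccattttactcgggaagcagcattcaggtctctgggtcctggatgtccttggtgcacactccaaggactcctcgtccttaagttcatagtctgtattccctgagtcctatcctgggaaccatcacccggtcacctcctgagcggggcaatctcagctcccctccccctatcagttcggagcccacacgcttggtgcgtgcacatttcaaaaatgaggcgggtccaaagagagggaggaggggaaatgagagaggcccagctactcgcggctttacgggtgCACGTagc
Nothing is read from these letters about the factor or about the strain difference.

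**Figure D4:**
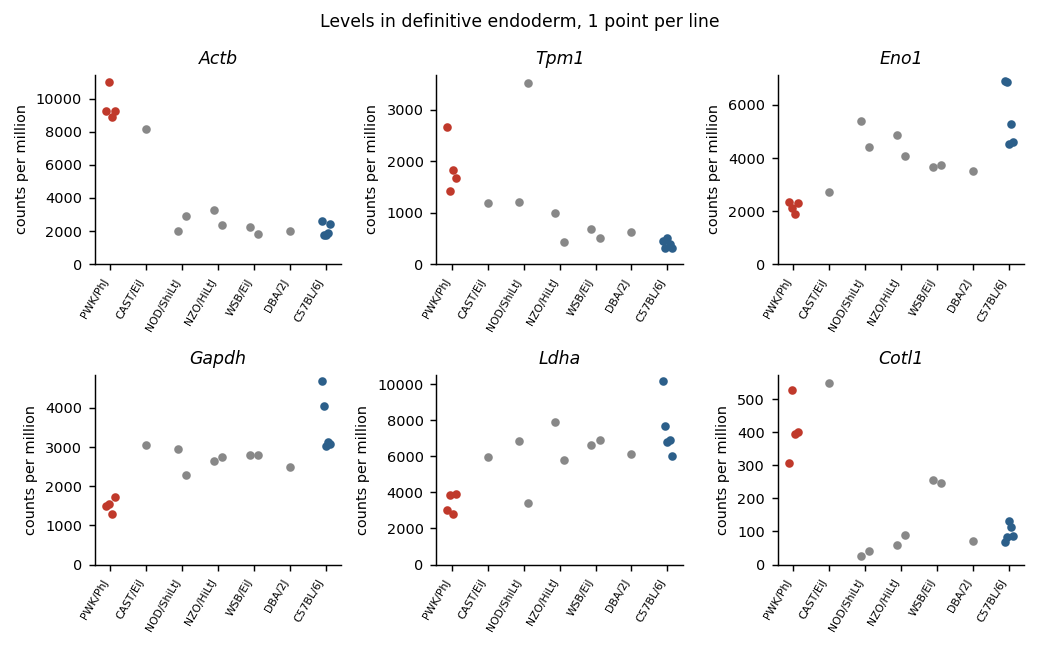
Levels of Actb, Tpm1, Eno1, Gapdh, Ldha and Cotl1 in DE in CPM (linear axes from 0), with 1 point per line for 7 strains, PWK/PhJ red at the left and C57BL/6J blue at the right. Actb is at 8898 CPM or above in every PWK/PhJ line and at most 2589.9 CPM in C57BL/6J, and the 1 CAST/EiJ line lies with PWK/PhJ.

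Remnants of the pluripotent state differed gene by gene. Among 11 tested core pluripotency genes 1 rose and 3 fell (median log2 fold -0.24). Nanog, a core factor of pluripotency that Nodal signalling sustains in the epiblast, measured 51.7, 32.9, 43.6 and 48.4 CPM in the PWK/PhJ lines, against 11.9, 3.84, 22.1, 8.73 and 8.56 CPM in the C57BL/6J lines. The groups were apart (2.00 ± 0.41; adjusted p = 0.00346). Dnmt3b, a DNA methyltransferase of the epiblast, went the other way, at 440.1 ± 61.9 CPM in PWK/PhJ and 1294 ± 302 CPM in C57BL/6J (-1.56 ± 0.19; adjusted p = 5.17e-05), as did Utf1 (-1.98 ± 0.49). Pou5f1 (1.69 ± 0.72; adjusted p = 0.132) gave no call, with levels from 0.861 to 19.4 CPM over the 9 lines. Of the naive and primed factors, Klf5 (1.56 ± 0.25) and Pou3f1 (1.97 ± 0.46) rose and Etv5 (-1.40 ± 0.27), an ETS factor downstream of FGF, fell. Nr0b1 had 0 counts over the PWK/PhJ libraries and 79 over the C57BL/6J libraries (means of 0 and 0.445 CPM). The calls of Nanog (1.98; adjusted p = 0.0514) and Pou3f1 (1.26; adjusted p = 0.239) ended with the fibroblast level as a covariate.

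Of the genes of the primitive streak and mesoderm, Wnt8a, Evx1, Kdr and Foxc1 were higher in PWK/PhJ. Of 10 streak genes 2 rose and 0 fell (median 1.23), a count of 4 without line 2. Wnt8a, a Wnt ligand of the streak, had 1497 counts over the PWK/PhJ libraries and 8 over the C57BL/6J libraries. It measured 6.01 to 17.2 CPM in the PWK/PhJ lines and averaged 0.0605 CPM in C57BL/6J. Evx1, a homeobox gene of the posterior streak, measured 36.5, 4.92, 11.8 and 6.8 CPM in PWK/PhJ, against 2.61, 1.72, 4.41, 1.43 and 1.79 CPM in C57BL/6J (2.64 ± 0.61). Brachyury, T, had 1.88 ± 0.67 (adjusted p = 0.0666) and its partner Sp5 1.77 ± 0.66 (adjusted p = 0.0833). AC699 was high at several of these, with 303 CPM of Sp5 beside 18.8 to 68.1 CPM in the other PWK/PhJ lines. Of 12 tested mesoderm genes 2 rose, both at low levels, beside 9.66% higher among all genes tested. Kdr, the VEGF receptor of blood vessel precursors, had 277 counts in PWK/PhJ and 11 in C57BL/6J, and Foxc1 averaged 1.58 ± 1.24 CPM in PWK/PhJ and 0.252 ± 0.124 CPM in C57BL/6J. The calls of Evx1 (2.45; adjusted p = 0.141), Kdr (6.83; adjusted p = 0.0549) and Foxc1 (1.47; adjusted p = 0.347) ended with the fibroblast level as a covariate. Without that covariate Kdr had 5.34 ± 1.19, and with AC695 as the only PWK/PhJ line it had 3.36. The summed mesoderm list was 59.85 to 117 CPM in PWK/PhJ and 33.98 to 72.52 CPM in C57BL/6J.

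Markers of other cell types moved in part with strain. Lmo2, a LIM protein of blood and endothelial development, measured 109, 57.4, 77.3 and 54.9 CPM in PWK/PhJ, against 26.1, 16.6, 12.8, 17 and 14.8 CPM in C57BL/6J (2.10 ± 0.31; adjusted p = 0.000247), while it was 1 of 8 tested endothelial and blood genes to pass and Pecam1 had -1.01 and Cdh5 -1.34. Of 12 tested genes of extraembryonic endoderm, 4 rose and 1 fell, and none of the 4 kept its call in all 9 fits that left out 1 line. Hnf4a, a nuclear receptor of visceral endoderm and liver, measured 1.98, 18.3, 7.14 and 3.58 CPM in PWK/PhJ, against 0.539, 0.196, 0, 0.657 and 1.37 CPM in C57BL/6J (3.81 ± 1.00), and its call ended without AC695 (2.94; adjusted p = 0.0656). Amn, a visceral endoderm receptor partner, had 22 counts in PWK/PhJ and 922 in C57BL/6J (means of 0.117 and 4.94 CPM). The extraembryonic list summed to 737.9 to 1001 CPM in PWK/PhJ and 372.7 to 684.5 CPM in C57BL/6J, which do not overlap, with Afp and Ttr too low to be tested. Most of these sums came from 1 gene, Sparc, at means of 781.2 CPM in PWK/PhJ and 458.3 CPM in C57BL/6J. The Sparc call, 1 of the 4 rises, ended with the fibroblast level as a covariate (0.54; adjusted p = 0.243). Pax3, of the neural plate border and somites, had 29 counts in PWK/PhJ and 1069 in C57BL/6J (means of 0.146 and 6.73 CPM). Neuroectoderm sums overlapped, at 17.67 to 64.99 CPM in PWK/PhJ and 15 to 43.66 CPM in C57BL/6J.

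Several mesenchymal transcription factors and matrix genes were higher in PWK/PhJ, as were some fibroblast markers. Of 11 tested mesenchymal genes 7 rose and 0 fell, with a median log2 fold of 1.70 beside -0.01 over all genes, and 5 of the 7 passed in all 9 fits that left out 1 line. Snai1, a repressor of epithelial genes in gastrulation, measured 14.2, 7.22, 10.9 and 14.4 CPM in the PWK/PhJ lines, against 2.16, 1.57, 3.6, 4.83 and 1.25 CPM in the C57BL/6J lines. It did not overlap between the strains, AC695 included (2.11 ± 0.50; adjusted p = 0.00879). Zeb2, of the same kind of repressors, behaved otherwise, with 8.21, 0.282, 3.85 and 4.41 CPM in PWK/PhJ, against 0.629, 0.666, 0.676, 0.362 and 0.179 CPM in C57BL/6J. Here AC695 lies inside the C57BL/6J range (3.06 ± 0.78; adjusted p = 0.0135), and with AC695 as the only PWK/PhJ line the value turned to -0.81. Zeb1 (1.67 ± 0.40), the cadherin gene Cdh11 (2.85 ± 0.66) and fibronectin, Fn1, also rose. Fn1 measured 633, 195, 469 and 638 CPM in PWK/PhJ, against 135, 129, 166, 173 and 142 CPM in C57BL/6J (1.70 ± 0.30; adjusted p = 0.001).

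Of 20 fibroblast markers 7 rose and 0 fell, with a median log2 fold of 1.93. That count was 14 without line 2, 3 without AC699, AC705 or line 4, and 4 without lines 44, 5-1 or 1. Fbn1, the microfibril protein fibrillin, measured 23.1, 8.11, 21.1 and 16.7 CPM in PWK/PhJ, against 5.17, 3.25, 5.73, 2.09 and 3.67 CPM in C57BL/6J (2.12 ± 0.36; adjusted p = 0.000798). Both genes of collagen I, the defining product of fibroblasts, missed the threshold by edgeR and passed by DESeq2. Col1a1 measured 56.6, 15.3, 91.9 and 126 CPM in PWK/PhJ, against 36.7, 6.27, 17.5, 12.1 and 2.98 CPM in C57BL/6J (2.27 ± 0.75; adjusted p = 0.0503). The covariate is the mean log2 CPM of these 20 fibroblast genes themselves, so their loss of calls under it is largely set by its construction. With it, 0 of the 20 fibroblast genes and 1 of the 11 mesenchymal genes, Snai1, remained called. Under that covariate Fn1 had 1.18 (adjusted p = 0.11), Zeb1 1.22 and Cdh11 1.78. EpiSC were grown on fibroblasts and DE cells were captured by surface CXCR4, and the part of remaining feeder cells in these values was not tested.

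**Figure D5:**
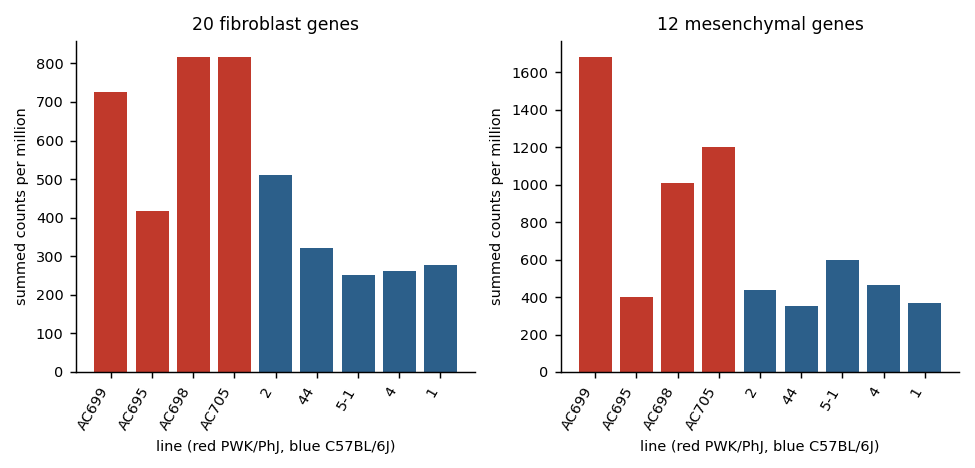
Summed CPM of 20 fibroblast genes (left) and 12 mesenchymal genes (right) for each DE line, PWK/PhJ (red) left of C57BL/6J (blue), on axes from 0. AC695 has 417.6 and 401 CPM, inside the C57BL/6J ranges of 251.7 to 511.2 and 351.1 to 595.7 CPM, while the other PWK/PhJ lines are above them in both panels. In the left panel line 2 is the only C57BL/6J line above AC695.

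Epithelial and basement membrane genes changed in both directions. Of 18 epithelial genes 2 rose and 3 fell (median -0.17), beside 9.66% higher and 7.47% lower among all genes tested. Cldn4, a tight junction claudin, had 4744 counts over the PWK/PhJ libraries and 168 over the C57BL/6J libraries (means of 39.36 and 0.805 CPM). Grhl2, a factor that maintains epithelia, averaged 6.51 ± 2.06 CPM in PWK/PhJ and 21.9 ± 9.72 CPM in C57BL/6J (-1.75 ± 0.39). With the fibroblast level as a covariate Grhl2 had -1.08 and no call. E-cadherin, Cdh1, had -0.24 ± 0.36 and ranged from 258 to 1291 CPM in PWK/PhJ and from 508 to 1118 CPM in C57BL/6J. Of 11 basement membrane genes 4 rose and 1 fell (4 rose without AC695, a fit in which Col4a1 lost its call, 1 without AC698 and 2 without AC705, while 0 fell without AC699 or AC698 and 2 without line 2). The linker Nid2 averaged 346 ± 90.0 CPM in PWK/PhJ and 117 ± 45.1 CPM in C57BL/6J (1.56 ± 0.34). Of the laminin genes, Lamb1 had -0.43 ± 0.22 and was not called. Lamc1, at 185.4 CPM in PWK/PhJ and 327.6 CPM in C57BL/6J, was called by DESeq2 and not by edgeR.

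Other signalling pathways gave calls at a few genes each. Their counts stand beside 9.66% higher and 7.47% lower among all genes tested. Of 12 tested Wnt targets 2 rose and 1 fell, with Tcf7, a transcription factor of the pathway, at 118 ± 5.39 CPM in PWK/PhJ and 70.6 ± 16.3 CPM in C57BL/6J (0.74 ± 0.17) and the R-spondin receptor gene Lgr5 at 13.5 ± 6.75 CPM in PWK/PhJ and 47.6 ± 22.5 CPM in C57BL/6J (-1.82 ± 0.41). The universal feedback target Axin2 had 1.10 ± 0.75 and the antagonist Dkk1 0.89 ± 0.35, neither called. The median log2 fold of the 12 Wnt targets was 0.82, beside -0.01 over all genes. Of these targets 6 had an unadjusted p under 0.05, as 29.3% of all genes tested did. DESeq2 called 5, Tcf7, Nkd1, Notum, Znrf3 and Lgr5. Of 10 BMP targets, Id4 (1.65 ± 0.39) and Msx1 (5.17 ± 0.90) rose and Id3 (-1.12 ± 0.24) and the pseudoreceptor gene Bambi (-0.83 ± 0.16) fell, while Id1 had -0.13 and Smad6 0.21. Msx1 reached 62.9 CPM in AC699 and 2.38 to 5.02 CPM in the other PWK/PhJ lines. Boc, a hedgehog co-receptor, was 1 of 10 hedgehog genes to pass, with 2253 counts in PWK/PhJ and 29 in C57BL/6J (means of 16.15 and 0.206 CPM). Ptch1, the pathway's own target, had -0.05. Of 11 FGF and ERK genes 2 fell, the feedback inhibitor genes Dusp6 and Spred2, and both calls were lost without AC695 (-0.41 and -0.87) or AC698 (-0.45 and -0.83). Retinoic acid genes gave 2 rises and 1 fall in 11 tested. The calls of Lgr5 (-1.31), Id4 (1.30) and Msx1 (4.31; adjusted p = 0.0698) ended with the fibroblast level as a covariate.

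Imprinted genes, expressed from only one parental copy, changed in both directions. Of 25 tested, 7 fell and 2 rose in PWK/PhJ, beside 7.47% lower and 9.66% higher among all genes tested, with a median of -0.11. Among maternally expressed genes of the Dlk1 and Meg3 locus, the noncoding RNA Meg3 measured 21.8, 37, 23.8 and 65.5 CPM in PWK/PhJ, against 133, 82, 283, 175 and 106 CPM in C57BL/6J (-2.07 ± 0.44; adjusted p = 0.00408), and Mirg had -1.83 ± 0.46. Asb4, also maternal, fell (-1.85 ± 0.44). Paternally expressed Peg3 averaged 278 ± 45.2 CPM in PWK/PhJ and 614 ± 218 CPM in C57BL/6J (-1.14 ± 0.25), and Snrpn had -1.11 ± 0.22. Impact (1.06 ± 0.24) and Zrsr1 (2.13 ± 0.34), both paternal, rose. The 2 rises and 6 of the 7 falls passed in all 9 fits that left out 1 line. Meg3 (-1.68), Asb4 (-1.67) and Peg3 (-0.63) lost their calls with the fibroblast level as a covariate.

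Interferon and cell cycle genes gave at most 1 call per list, and heat shock, cholesterol and MHC genes changed in both directions. Among all genes tested, 9.66% were called higher and 7.47% lower. Of 13 tested interferon response genes 0 passed by edgeR, 1 had an unadjusted p under 0.05 and DESeq2 called 1, Ifitm3. In antigen presentation by MHC class I, H2-T23 rose by 1.76 ± 0.38. Psmb10, a subunit of the immunoproteasome, had 70 counts over the PWK/PhJ libraries and 4060 over the C57BL/6J libraries (means of 0.588 and 20.4 CPM). Its partners Psmb8 and Psmb9 had log2 folds of 0.59 and -0.14. MHC genes vary in sequence between strains, and H2 genes have close copies, so these counts are uncertain. Of 12 p53 targets 2 rose, Perp and Cdkn1a, with Cdkn1a, which encodes the CDK inhibitor p21, at 263 ± 42.1 CPM in PWK/PhJ and 127 ± 40.0 CPM in C57BL/6J (1.06 ± 0.25) and Mdm2, not called, at 0.53 ± 0.21 (adjusted p = 0.1). Perp passed in neither the fit without AC695 (0.52) nor that without AC698 (0.61), AC705 (0.63), 5-1 (0.56), 4 (0.54) or 1 (0.56). The Cdkn1a call ended with the fibroblast level as a covariate (0.72). Of 13 cholesterol genes, Hmgcs1 (0.76 ± 0.16) and Insig1 were among 3 that rose, Dhcr7 and Sc5d (-1.08 ± 0.23) fell. Sc5d lost its call with that covariate (-0.78). Of 12 immediate early and heat shock genes 2 rose and 2 fell. The chaperone genes Hspa1a (2.21 ± 0.66) and Hspa1b (1.94 ± 0.42), near-identical copies whose single values are uncertain, rose, and Hspb1 (-1.25 ± 0.41) and Dnajb1 (-0.55 ± 0.16) fell. Of the 4 calls, Hspa1b alone passed in all 9 fits that left out 1 line. Of 15 cell cycle genes 0 rose and 1 fell, and the proliferation marker Mki67 averaged 92.9 ± 11.2 CPM in PWK/PhJ and 102 ± 31.8 CPM in C57BL/6J.

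Genes of the mitochondrial genome moved unequally. Cytochrome oxidase gene mt-Co1 measured 766, 823, 747 and 925 CPM in PWK/PhJ, against 1569, 1800.2, 1754, 1591 and 1799 CPM in C57BL/6J (-1.06 ± 0.25; adjusted p = 0.00787), and its call ended with the fibroblast level as a covariate (-0.69). Gene mt-Cytb averaged 2413 ± 60.3 CPM in PWK/PhJ and 1646 ± 236 CPM in C57BL/6J (0.55 ± 0.22; adjusted p = 0.108). Both mt-Co3 (2.25 ± 0.54) and mt-Atp6 (2.50 ± 0.55) had higher counts in PWK/PhJ, at levels under 4 CPM in every line. Summed counts were 418 in PWK/PhJ and 116 in C57BL/6J at mt-Co3, and 376 and 92 at mt-Atp6. How reads with several matches were counted is not given in the sources used here, so these 2 values are uncertain. In EpiSC the folds were -1.13 ± 0.08 at mt-Co1 and 0.53 ± 0.07 at mt-Cytb. The summed list was 5713 to 6137 CPM in PWK/PhJ and 4921 to 5869 CPM in C57BL/6J, which overlap.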

How the data were processed

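RNA sequencing of 17 DE and 17 EpiSC libraries was used. The authors deposited raw read counts per gene, 53655 genes in a table, made, per the submitters' processing notes, with STAR 2.4 (alignment to mm10) and HTSeq 0.6.1 (counting). The annotation release, strand setting and treatment of reads with several matches are not stated in these sources. Per the labels' protocols, DE libraries used the SMART-Seq v4 kit and EpiSC libraries a stranded TruSeq kit.

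Genes reaching 10 counts in 3 or more DE libraries were tested in edgeR 4.0.16 under R 4.3.3 (robust quasi-likelihood F test after TMM scaling) on the deposited counts, with all 17 DE libraries in 1 fit by strain and Benjamini-Hochberg adjustment at 0.05. CPM use TMM library sizes, and summed counts are not scaled for depth or number of lines. SE is the absolute log2 fold divided by the square root of F. The code was tested on simulated data. Named genes are the 10 largest folds (mean log2 CPM at least 4) and the 10 highest levels (log2 fold at least 1) in each direction, called and not overlapping, with predicted genes and clone names passed over, and members of gene lists. Some of these genes are not reported here. Members and lists were chosen with earlier results of these data known. Alternatives were other size factors (RLE), DESeq2 1.42.0, other filters, the 9 libraries alone, covariates and left-out lines. Positions are from GENCODE (GRCm38) and promoters from RefSeq (GRCm38.p6). The p-values are limited by 4 and 5 lines.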

Additional observations from a re-analysis of the deposited data

Results flagged for a closer look

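Single lines stood far from the rest of their strain in 4 of 88 groups examined, where chance alone gives about 1 in 20. Actb was 10986 CPM in AC695 and Dhcr7 was 26.3 CPM in AC705, both above the other PWK/PhJ lines. Wnt8a was 0.27 CPM in line 2, and the summed fibroblast genes were 511.2 CPM in line 2, each above the other C57BL/6J lines.

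The strain effect differed between DE and EpiSC, by the interaction test, at 19 of the genes named by fold or level (kit and cell type cannot be told apart). The ranks by fold and by level held 20 genes each, with 1 gene on both. Over all genes, 6.67% of 20907 passed that test. The ranked genes were chosen for differences in DE, which enter the interaction, so nothing is read from their count against that share. The effect of PWK/PhJ was more positive in DE by 3.70 at Cd151, 3.50 at Ung, 2.60 at Cotl1, 2.18 at Wnt11, 2.02 at Actb, 1.84 at Tpm1, 1.57 at Myadm, 1.30 at Hyou1 and 0.87 at Insig1 on the log2 scale. The difference was -4.34 at Chga, -4.05 at Ntrk2, -3.25 at Dhcr7, -2.70 at A4galt, -2.54 at Tspan15, -2.51 at Chrnb4, -2.09 at Dync1li1, -1.75 at Ly6e, -1.73 at Nt5c and -1.36 at Dnmt3b.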

How the results depend on the processing

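The count of called genes was 3302 with RLE size factors, 4226 with DESeq2, 4519 with no filter, 2693 with a stricter filter, 2839 with the 9 libraries alone and 3270 with a Y-linked covariate, beside 3303. Leaving out 1 line gave 2334 to 3795 called genes, 1378 to 2130 higher and 956 to 1665 lower. With the fibroblast level as a covariate 2142 genes were called, 1102 of them higher, and 1670 were shared with the full comparison. Lox then turned to -0.075, and C57BL/6J against the other strains gave 218 called genes. With AC695 as the only PWK/PhJ line, an alternative added after seeing the data as was leaving out lines 2 and 4, 624 genes were called, 433 higher and 191 lower, beside 1863 higher and 1440 lower. Vim (-0.32), Zeb2 (-0.81), Foxc1 (-0.055) and Nid1 (-0.58) then turned in direction. The cause was not tested. No paired analysis was possible because the lines of the 2 strains share no number. For the difference between cell types, cell line as a replicate block gave 797 called genes beside 1394. The number of lines and low counts limit the rest.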
